A study of Mus musculus with 50 samples.

Results

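Potassium channel genes were examined in the gastrocnemius muscle of aging mice. The 89 genes taken have symbols beginning with Kcn, and 24 of them reached 1 TPM (a level corrected for transcript length and library size) in 8 or more mice. Over all genes, 12452 of 23880 reached that level. The 50 mice were male C57BL/6JRj animals aged 8, 18, 22, 24, 26 or 28 months, with 8, 8, 8, 8, 9 and 9 mice per age, and each mouse gave 1 poly(A)-selected, strand-specific RNA-seq library. All mice ate the AIN-93M diet. Mice of 8 and 18 months had been moved to it at least 2 months before, while those of 22 to 28 months had eaten it since 18 to 19 months of age, so that diet history and age cannot be told apart when the older ages are compared with 8 months. Animals with overt illness or tumors had been excluded, and the study named 8 and 18 months adult, 22 and 24 months early sarcopenic, and 26 and 28 months sarcopenic. The libraries held 13607229 to 21267375 counts, and every pair of the same age differed by more than sampling noise (chi-square per degree of freedom of 6.29 or more over 184 pairs). Muscle fibre markers were abundant in every library: Ckm (creatine kinase), Acta1 and 4 other fibre genes summed to 131839 to 157701 TPM at 8 months and 108817 to 175454 TPM at 28 months. In whole muscle, a lower level can reflect fewer cells of a type or less RNA per cell, and the data cannot tell these apart.

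Potassium channels set the resting potential of the muscle fibre and end its action potentials. Voltage-gated channels open on depolarization, inward rectifiers pass current near the resting potential, two-pore channels carry leak current, and a further group opens when intracellular calcium or sodium rises. Auxiliary subunits change how the pore-forming subunits traffic and gate. Muscle fibres, vessels, nerve and immune cells each have their own set of these channels, and all of them contribute RNA to whole muscle.

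The genes that reached 1 TPM were unevenly spread over these classes. They were 11 of 36 voltage-gated, 4 of 15 inward rectifier, 4 of 12 two-pore, 4 of 8 calcium- or sodium-activated and 1 of 14 auxiliary genes, with none of 4 antisense symbols. Of the 65 genes below that level, 52 never reached 1 TPM in any mouse and 2 had no count at all. Among the 24, 15 were at 1 TPM or above in all 50 mice, 11 had a mean over 10 TPM and 9 a mean under 2 TPM. Kcnk5 at 34 of 50 mice and Kcnk2 at 35 were well inside the rule, Kcnq1 at 11 and Kcnn3 at 13 only just, and Kcna2, Kcna10, Kcne3 and Kcnj3 at 6 mice each were just outside. Kcnq1 and Kcnn3 entered mainly through old mice. For Kcnq1, 6 of its 11 mice were 28 months old, and for Kcnn3 the mice at 1 TPM numbered 0, 1, 0, 3, 4 and 5 from 8 to 28 months. The rule therefore favored finding these genes higher in old mice.

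Kcnc4 and Kcng4 showed the smallest adjusted p-values of the 24 genes and moved in opposite directions, and Kcnj2 is described with them below because it rose while a gene of its own class fell. Their promoter windows are given so that these genes can be placed, each from 250 bases before to 50 bases after the RefSeq start site on GRCm38.p6, 5′ to 3′ along the gene. Capitals mark CAGCTG, an E-box of the kind bound by the myogenic factors.

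Kcnc4, chr3:107458849-107459148, minus strand: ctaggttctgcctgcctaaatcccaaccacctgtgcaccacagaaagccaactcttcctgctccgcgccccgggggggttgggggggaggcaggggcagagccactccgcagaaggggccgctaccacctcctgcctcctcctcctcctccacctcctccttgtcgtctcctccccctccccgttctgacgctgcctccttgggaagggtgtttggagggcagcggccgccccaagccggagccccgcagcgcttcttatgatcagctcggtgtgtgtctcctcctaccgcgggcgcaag

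Kcng4, chr8:119635631-119635930, minus strand: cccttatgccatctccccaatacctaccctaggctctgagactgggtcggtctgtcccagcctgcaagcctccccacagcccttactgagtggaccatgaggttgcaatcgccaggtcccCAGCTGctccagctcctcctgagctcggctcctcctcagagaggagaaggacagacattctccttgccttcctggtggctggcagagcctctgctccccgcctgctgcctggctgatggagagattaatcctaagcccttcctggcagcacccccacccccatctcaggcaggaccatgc

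Kcnj2, chr11:111065914-111066213, plus strand: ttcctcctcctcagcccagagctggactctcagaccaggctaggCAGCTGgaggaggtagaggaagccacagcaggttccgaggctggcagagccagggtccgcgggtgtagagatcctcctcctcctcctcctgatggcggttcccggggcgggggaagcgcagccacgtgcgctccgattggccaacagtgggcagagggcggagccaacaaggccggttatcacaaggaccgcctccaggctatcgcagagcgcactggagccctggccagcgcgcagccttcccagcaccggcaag

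The hexamer CAGCTG, which reads the same on both strands, lay 130 bases before the start of Kcng4 and 206 bases before that of Kcnj2. It was absent from the Kcnc4 window. That window lies wholly inside the GENCODE bounds of Kcnc4 (chr3:107438303-107459552), so the bases before the GENCODE start of this gene were not searched. Of 16 of the 24 genes with a promoter entry, 5 held it in a window (Kcne4, Kcng4, Kcnj2, Kcnk2 and Kcnn1). Counted by window, it was in 7 of 21 windows of these 16 genes and in 16.3% of all 32851 promoter windows. A MEF2-like pattern (CTA and TAG around 4 bases of any kind), searched on both strands, was in no window of these 16 genes and in 3.69% of all windows. It is not the exact MEF2 site, for which no search was made.

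The inward rectifier Kcnj11, the pore of the ATP-sensitive potassium channel, had the highest level per length at every age. Its mean was 182 ± 25.7 TPM (SD, n = 8) at 8 months and 187 ± 27.2 TPM (SD, n = 9) at 28 months. It made up 41.0 ± 3.31% (SD, n = 8) of the summed TPM of the 24 genes at 8 months and 40.3 ± 2.29% (SD, n = 9) at 28 months. This rank rests on the assigned transcript length, since a TPM of Kcnj11 stood for a median of 5.89 counts and one of Kcnj2 for 50.04. In counts, Kcnj11 (788 to 1584 per mouse) and Kcnj2 (673 to 3549 per mouse) overlapped. GENCODE vM21 lists coding transcripts of 434 to 3142 bases for Kcnj11 and a single one of 5444 bases for Kcnj2. After Kcnj11 came the voltage-gated Kcna7, the inward rectifier Kcnj12, Kcnc4, the large-conductance calcium-activated channel Kcnma1, and Kcnj2, with means over all mice of 42.0, 36.3, 31.3, 23.0 and 22.8 TPM. The summed level of the 24 genes was 442 ± 50.6 TPM (SD, n = 8) at 8 months and 462 ± 46.1 TPM (SD, n = 9) at 28 months, and the values overlapped. The voltage-gated genes together held 32.5 ± 2.06% (SD, n = 8) of the sum at 8 months and 30.7 ± 2.38% (SD, n = 9) at 28 months. Kcnc4 made up 14.4 ± 2.43% (SD, n = 8) of the voltage-gated sum at 8 months and 34.0 ± 9.79% (SD, n = 9) at 28 months.

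**Figure D1:**
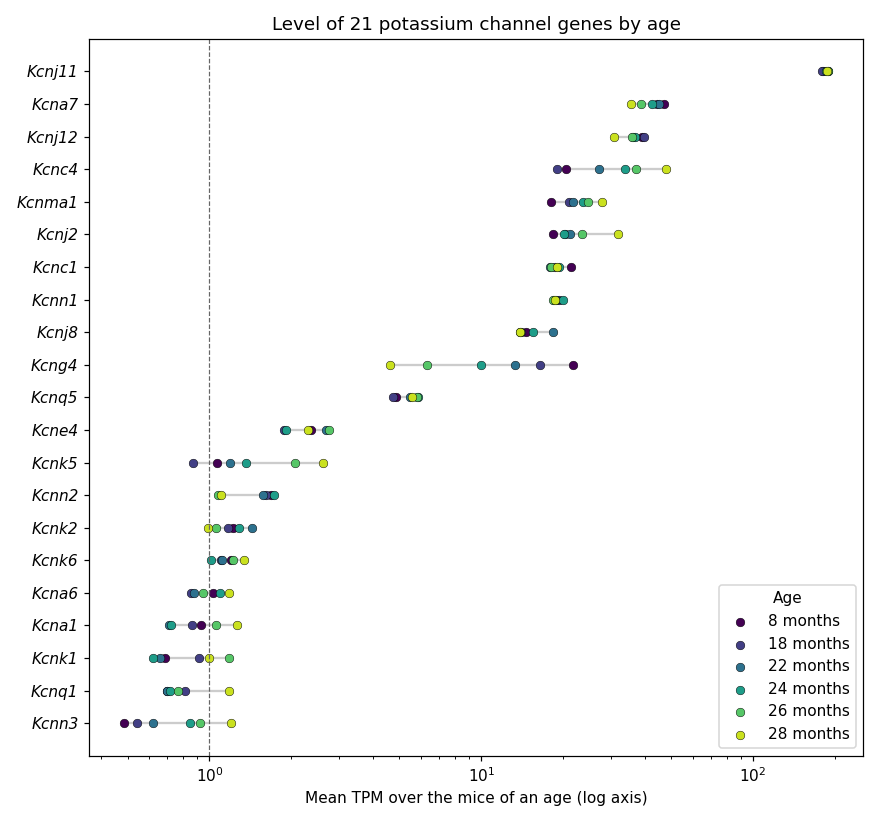
Mean TPM of 21 of the 24 potassium channel genes at the 6 ages, on a log axis, with the color of a point giving the age and the dashed line marking 1 TPM. Kcnj11 stands apart at over 100 TPM at all ages, and Kcng4 has the widest spread between ages, from 21.7 TPM at 8 months to 4.60 TPM at 28 months.

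Between 8 and 28 months, 9 of the 24 genes passed the test at a false discovery rate (FDR) below 0.01, 6 higher and 3 lower at 28 months. Over all 12586 genes tested, 39.6% passed, 21.0% higher and 18.7% lower, so the 37.5% found among these genes is close to the background. Kcnq1 reached the rule only with the mice of 28 months counted, and without it 8 of 23 genes passed (34.8%), 5 higher and 3 lower. The median log2 fold change was 0.03 over the 24 genes and 0.01 over all genes, and the median absolute value 0.40 against 0.29. By class, 2 of 11 voltage-gated genes were higher and 2 lower, 1 of 4 inward rectifiers was higher and 1 lower, 1 of 4 two-pore and 2 of 4 calcium- or sodium-activated genes were higher, and the auxiliary gene Kcne4 did not pass. All tests are edgeR's quasi-likelihood test on the counts with 1 fit over the 6 ages and Benjamini-Hochberg adjustment over all genes, fold changes are on the count scale, and all comparisons with 8 months share its 8 mice.

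Among the voltage-gated genes, Kcnc4 encodes Kv3.4, a channel of the Kv3 family. At 8 months the lowest, median and highest mice were at 16.6, 20.6 and 25.6 TPM, and at 28 months at 31.3, 44.0 and 71.0 TPM. All 9 mice of 28 months lay above all 8 mice of 8 months. The medians in between were 19.0, 28.1, 34.0 and 34.3 TPM at 18, 22, 24 and 26 months. Kcnc4 (chr3:107438303-107459552 on GRCm38, minus strand) rose 2.21-fold between 8 and 28 months, a log2 fold change of 1.14 ± 0.15 (SE) with an edgeR FDR of 7.0e-08. It was the only one of the 24 called at 24 against 8 months, with a log2 fold change of 0.70 ± 0.15 (SE) and an edgeR FDR of 0.0044. That call was lost when any of 6 single mice was left out (8 months replicates 2, 7 and 8, 24 months replicates 1, 4 and 8), with FDR up to 0.0173.

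Kcng4 encodes Kv6.4, a subunit that does not conduct on its own and modifies other voltage-gated channels. Its lowest, median and highest mice were at 16.3, 18.8 and 29.8 TPM at 8 months and at 1.23, 2.60 and 10.5 TPM at 28 months. The groups did not overlap. The medians of the ages between were 17.5, 12.2, 10.1 and 6.87 TPM, each lower than the one before. In counts, Kcng4 had a median of 817.5 per mouse at 8 months and 86 at 28 months. Kcng4 (chr8:119623854-119635680 on GRCm38, minus strand) was 4.92-fold lower at 28 months, with a log2 fold change of -2.30 ± 0.35 (SE) and an edgeR FDR of 1.2e-06. The SD was 5.48 TPM at 8 months and 3.85 TPM at 28 months, and relative to the mean it was 25.3% and 83.6%.

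Kcna7 encodes Kv1.7, a Shaker-family channel found in muscle. Its lowest, median and highest mice were at 34.7, 49.2 and 55.5 TPM at 8 months and 23.9, 34.2 and 53.6 TPM at 28 months. The groups overlapped, although 8 of 9 mice of 28 months were below the 8 months mean. Kcna7 changed by log2 -0.46 ± 0.12 (SE), 1.37-fold lower, with an edgeR FDR of 0.0015. Kcnq1, the KvLQT1 subunit, had 0.464, 0.620 and 1.36 TPM at 8 months and 0.605, 1.16 and 2.04 TPM at 28 months. These are 12 to 20 and 14 to 36 counts per mouse, and the ranges overlapped. Its log2 fold change was 0.63 ± 0.21 (SE) with an edgeR FDR of 0.00996, and this call was kept in 2 of 9 alternative settings, among which the FDR reached 0.0238, and in 16 of 50 leave-outs. Of the other 7 voltage-gated genes, Kcnc1, of the same Kv3 family as Kcnc4, had a log2 fold change of -0.21 that did not pass the test, with an edgeR FDR of 0.270.

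The inward rectifiers Kcnj2 (Kir2.1) and Kcnj12 (Kir2.2) form the classical strong inward rectifier channels of muscle and can assemble together. Kcnj2 stood at 11.7, 18.8 and 25.0 TPM at the lowest, median and highest mouse of 8 months and at 18.0, 29.0 and 72.9 TPM at 28 months. Most 28 months-old mice were high, 6 of 9 lying above all those of 8 months, and 1 mouse (28 months replicate 2) stood far above the rest, which ended at 32.8 TPM. Kcnj2 changed by log2 0.70 ± 0.19 (SE) with an edgeR FDR of 0.0017. Without that mouse it was 0.49 with an FDR of 0.0139 and no longer passed the test.

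Kcnj12 stood at 28.2, 39.1 and 51.4 TPM at 8 months and at 20.4, 30.2 and 41.4 TPM at 28 months. The ranges overlapped, with 4 of 9 mice of 28 months below all those of 8 months. Kcnj12 changed by log2 -0.39 ± 0.12 (SE) with an edgeR FDR of 0.0056. The call was lost when any of 6 single mice was left out (8 months replicates 2 and 5, 28 months replicates 1, 2, 5 and 8), with FDR up to 0.0225. With only the 8 and 28 months-old mice in the fit, the edgeR FDR was 0.0130 for Kcnj2 and 0.0475 for Kcnj12, and neither passed.

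The other inward rectifiers did not pass the test. Kcnj11 had a log2 fold change of -0.02 with an approximate 95% interval (from the SE) of -0.19 to 0.16, and its sign turned with limma on TPM, where it was 0.04. Kcnj8, the vascular Kir6.1 subunit of ATP-sensitive channels, had medians of 14.6 TPM at 8 months and 13.7 TPM at 28 months and a log2 fold change of -0.15 with an interval of -0.43 to 0.14.

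**Figure D2:**
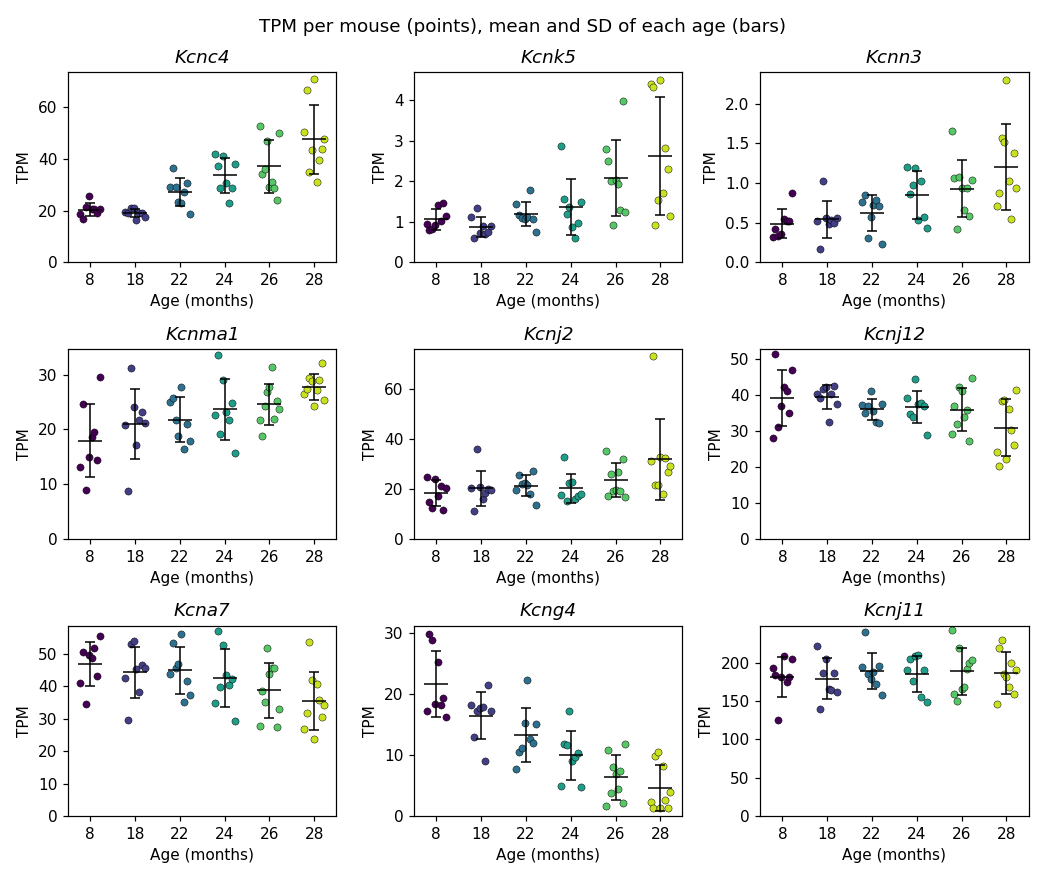
TPM of 9 potassium channel genes in each mouse (points) by age, with bars giving the mean and SD of each age, and a separate axis from 0 for each gene. The Kcnc4 points of 28 months lie above and the Kcng4 points below all those of 8 months, the highest Kcnj2 value is 1 mouse of 28 months at 72.9 TPM, and the Kcnj11 points of all ages overlap.

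Among the two-pore genes, Kcnk5 (TASK-2) rose. Its lowest, median and highest mice were at 0.784, 0.979 and 1.47 TPM at 8 months and 0.908, 2.30 and 4.50 TPM at 28 months. The ranges overlapped at the low end, while 7 of 9 mice of 28 months lay above all those of 8 months. The values were 30 to 55 and 27 to 131 counts per mouse. The log2 fold change was 1.23 ± 0.27 (SE), 2.34-fold, with an edgeR FDR of 2.5e-04. On the log2(TPM + 1) scale, which understates low genes, it was 0.72. Kcnk2 (TREK-1) had medians of 1.17 TPM at 8 months, 1.31 TPM at 22 months and 0.992 TPM at 28 months, and its log2 fold change of -0.46 between 8 and 28 months did not pass the test, with an edgeR FDR of 0.0145. Kcnk1 and Kcnk6 did not pass either, at log2 fold changes of 0.46 and 0.04.

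Of the calcium-activated genes, Kcnma1 encodes the pore of the BK channel. It stood at 8.95, 16.7 and 29.5 TPM at 8 months and at 24.2, 27.4 and 32.1 TPM at 28 months. The oldest mice were closely grouped, with a coefficient of variation of 8.48% at 28 months against 36.8% at 8 months, and all 9 were above the 8 months mean. The log2 fold change was 0.58 ± 0.14 (SE) with an edgeR FDR of 4.4e-04. Over the 24 genes, the median coefficient of variation was 25.6% at 8 months and 28.4% at 28 months.

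Kcnn3 (SK3), a small-conductance channel known to appear in fibres that have lost their nerve, stood at 0.313, 0.474 and 0.871 TPM at 8 months and at 0.541, 1.02 and 2.29 TPM at 28 months. In counts these were 23 to 57 and 26 to 97 per mouse, and 7 of 9 mice of 28 months lay above all those of 8 months in TPM. A TPM of Kcnn3 stood for a median of 71.2 counts at 8 months and 49.4 at 28 months. For Kcnj2 these were 57.9 and 47.7. The part of this shift in the TPM rise of Kcnn3 was not tested. The log2 fold change was 1.03 ± 0.24 (SE), 2.04-fold, with an edgeR FDR of 4.7e-04, and on the log2(TPM + 1) scale it was 0.54. Its paralog Kcnn1 (SK1) had medians of 18.5 and 18.2 TPM, with a log2 fold change of 0.01 and an interval of -0.13 to 0.15. Kcnn2 (SK2) had a log2 fold change of -0.69 that did not pass the test, with an edgeR FDR of 0.0119. The same mouse, 28 months replicate 5, had the highest level of Kcnc4, Kcnk5 and Kcnn3 in the whole series.

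**Figure D3:**
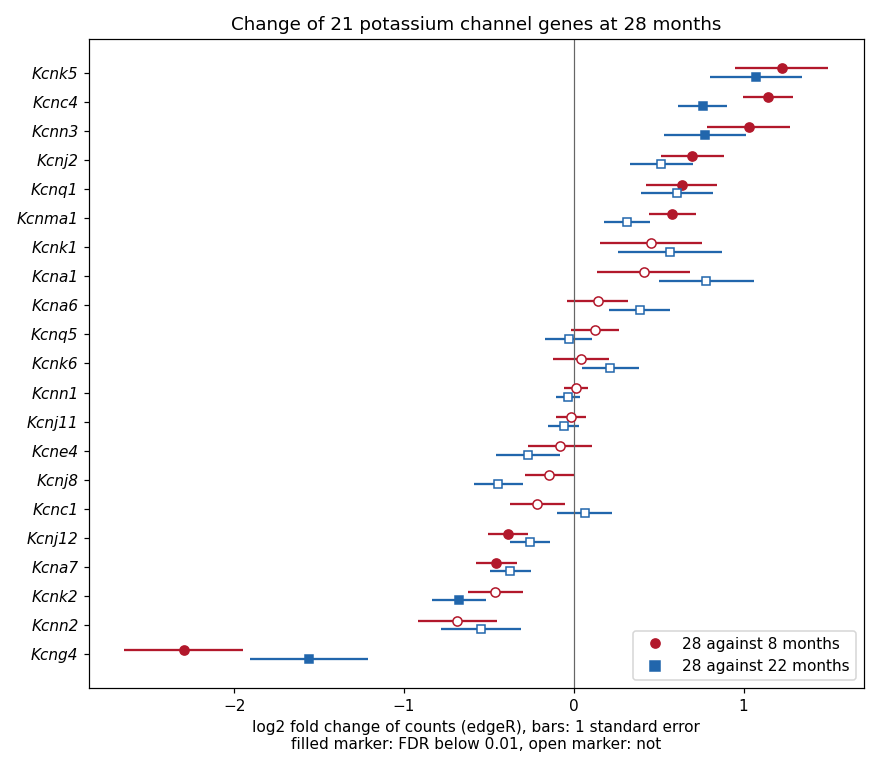
Log2 fold changes of 21 of the 24 potassium channel genes at 28 months against 8 months (red circles) and against 22 months (blue squares), with bars of 1 standard error and filled markers where the edgeR FDR is below 0.01. Kcng4 lies far to the left at -2.30 and -1.56, and Kcnk5 and Kcnc4 lie furthest to the right against 8 months.

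The test also covered 9 genes that were under 1 TPM in most mice. Between 8 and 28 months, Kcnq3 and Kcnd3 were higher, at log2 fold changes of 1.17 and 0.99 with edgeR FDR of 8.9e-04 and 0.0058, and Kcnh2 was lower at -0.95 with an FDR of 0.0085. All 3 are voltage-gated. Over the 50 leave-outs, the call was kept in all for Kcnq3, in 44 for Kcnd3 and in 38 for Kcnh2. With no filter on low genes Kcnd3 and Kcnh2 were not called (FDR 0.010003 and 0.0143), and Kcnh2 was not called with a replicate block either (FDR 0.0125). Their means at 28 months were 0.304, 0.296 and 0.424 TPM. Together with the 9 above, 12 of 33 tested genes were called (36.4%), where 39.6% of all genes were.

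The other ages were compared in the same way. At 26 against 8 months, 4 of the 24 genes were called (Kcnc4, Kcnk5 and Kcnma1 higher, Kcng4 lower), where 18.4% of all genes were. Kcnc4 and Kcng4 kept this call in every setting and leave-out run, while that of Kcnk5 was lost with limma and without any of 8 single mice (8 months replicates 1, 2, 3, 4 and 6, 26 months replicates 1, 2 and 8), and that of Kcnma1 in 7 of 9 alternatives and 17 of 50 leave-outs. At 24 against 8 months 1 was called, with 0.612% of all genes. At 22 against 8 months edgeR called none, with 0.0397% of all genes, and DESeq2 and limma also called none of the 24. An unadjusted edgeR p under 0.05 was found for 3 of the 24 (12.5%) and for 9.01% of all genes. At 18 against 8 months edgeR called none, with 0.0715% of all genes, and DESeq2 and limma called none of the 24. None of the 24 had an unadjusted edgeR p under 0.05, where 3.65% of all genes did. At 26 against 24 months edgeR called none, with 0.0% of all genes, and DESeq2 and limma called none of the 24. Here 5 of the 24 (20.8%) had an unadjusted edgeR p under 0.05, where 17.5% of all genes did. Over any of the 6 ages, 6 of the 24 genes differed (Kcnc4, Kcng4, Kcnk5, Kcnn3, Kcnma1 and Kcnk2), with 35.4% of all genes.

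In fraction of the 8 to 28 months log2 difference, Kcnc4 had covered 33.5% by 22 months, 61.4% by 24 months and 75.2% by 26 months. For Kcng4 these were 32.1%, 50.9% and 77.8%. Kcnk5 stood at 12.4%, 29.2% and 79.0%, Kcnma1 at 46.1%, 66.4% and 79.4%, and Kcnn3 at 25.0%, 78.2% and 75.3%. Kcna7 stood at 17.9%, 36.1% and 61.0%, and Kcnj2 at 26.2%, 14.9% and 50.8%. The figures were 33.4%, 27.0% and 30.8% for Kcnj12, and 4.35%, -8.75% and 31.7% for Kcnq1. Since every age is set against the same 8 months-old mice, these figures share their error.

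The mice of 22 and 28 months had started the diet at the same age. Those of 28 months had eaten it for longer, so time on the diet and age cannot be told apart here either. Between these ages 5 of the 24 genes were called, where 27.7% of all genes were. Kcnc4, Kcnk5 and Kcnn3 were higher at log2 fold changes of 0.76, 1.07 and 0.77, and Kcng4 was lower at -1.56, with edgeR FDR of 9.2e-05, 0.0017, 0.0087 and 4.6e-04. Kcnc4 and Kcng4 kept this call in every setting and leave-out run, Kcnk5 missed it when the fit held the 22 and 28 months-old mice alone (FDR 0.0108), and Kcnn3 missed it in 4 of 9 alternatives and 10 of 50 leave-outs. The fifth was Kcnk2, a mechano-sensitive leak channel, lower at -0.68 ± 0.16 (SE) with an FDR of 8.8e-04, a call that was lost with limma on TPM (FDR up to 0.0249). Kcna7, Kcnj2, Kcnma1, Kcnj12 and Kcnq1 kept the same sign as against 8 months without passing, at log2 fold changes of -0.38, 0.51, 0.31, -0.26 and 0.61.

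Ratios between a few genes differed between young and old mice. The pairs were picked after their values had been seen, so the ratios are given as a description. The ratio of Kcnj2 to Kcnj12 in TPM had a median of 0.420 (range 0.289 to 0.885) at 8 months and 1.02 (0.497 to 3.57) at 28 months, and Kcnj2 exceeded Kcnj12 in 0 of 8 mice at 8 months, 2 of 9 at 26 months and 5 of 9 at 28 months. The ratio of Kcnc4 to Kcng4 had a median of 1.03 (0.556 to 1.40) at 8 months and 15.3 (3.54 to 54.0) at 28 months, and all 9 mice of 28 months lay above all 8 of 8 months. Kcnc4 exceeded Kcna7, the leading voltage-gated gene of young muscle, in 0, 0, 0, 2, 3 and 7 mice from 8 to 28 months.

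**Figure D4:**
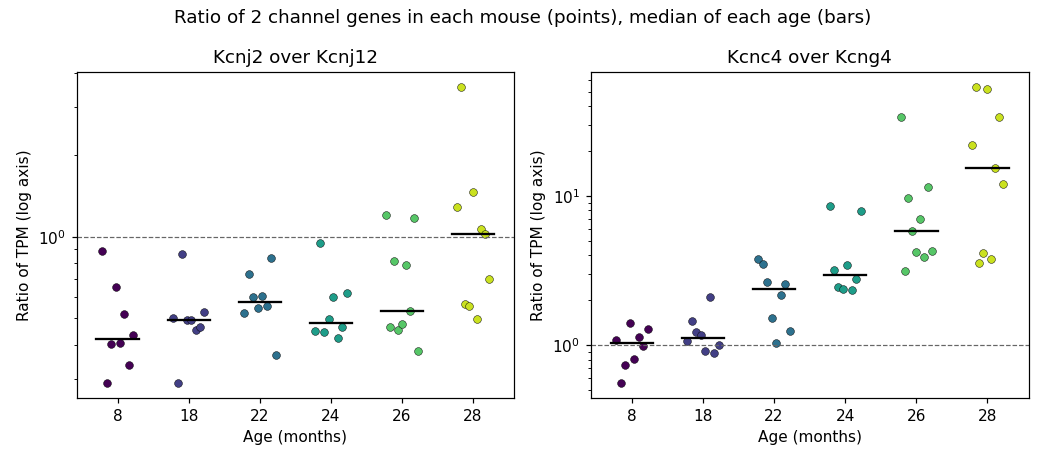
Ratio of TPM in each mouse (points) for Kcnj2 over Kcnj12 and for Kcnc4 over Kcng4 by age, on log axes, with bars at the median of each age and dashed lines at a ratio of 1. Kcnj2 exceeds Kcnj12 in 5 of 9 mice at 28 months, and the Kcnc4 to Kcng4 ratio goes from a median of 1.03 at 8 months to 15.3 at 28 months.

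Genes that work with these channels moved in both directions. The 21 tested partners were ATP-sensitive channel subunits, BK auxiliary genes, sodium pump subunits, cation-chloride cotransporters, Dpp6, Dpp10 and the pacemaker channel Hcn4. At 28 against 8 months 7 were higher and 4 lower, and 10 did not pass, among them Dpp6, Dpp10 and Hcn4. Over all genes tested, 21.0% were higher and 18.7% lower. The ATP-sensitive channel subunits Abcc8 (SUR1) and Abcc9 (SUR2) rose by log2 1.23 and 0.43, with edgeR FDR of 3.6e-05 and 0.0011. The channel genes Kcnj11 and Kcnj8 did not pass. Abcc9 is also on the pericyte and smooth muscle list below, where it is the gene counted as higher. Lrrc38, a gamma subunit of BK channels, fell from 26.2 ± 4.57 TPM (SD, n = 8) to 9.96 ± 7.41 TPM (SD, n = 9), a log2 fold change of -1.45 with an edgeR FDR of 4.4e-05, while the BK pore gene Kcnma1 rose. The cotransporter Slc12a2 (NKCC1) rose by log2 1.29 with an edgeR FDR of 2.5e-07. The sodium pump family members Atp1b4 and Fxyd5 were higher at log2 0.97 and 0.50, and Atp1b2, Fxyd1 and Fxyd6 were lower at -0.44, -0.38 and -0.69.

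Markers of other cells and of denervation moved over the same ages. To set beside the counts below, 21.0% of all genes tested were higher at 28 against 8 months and 18.7% lower. Of 11 tested genes of the denervation response, 8 were higher at 28 months (among them Runx1 at log2 2.33) and none lower, and the summed level of the list was 82.9 to 141 TPM at 8 months and 163 to 717 TPM at 28 months. Macrophage genes were higher in 5 of 8 (Cd163 at log2 1.29, Mrc1 at 0.84; summed 88.8 to 153 and 141 to 333 TPM), and Ptprc, which all leukocytes express and which was the 1 gene of the lymphocyte list abundant enough to test, was higher at log2 1.22 (list summed 1.04 to 2.67 and 2.83 to 15.6 TPM). Fibroblast genes were lower in 5 of 7 (Col3a1 at log2 -2.28, Col1a1 at -2.08; summed 789 to 1147 and 634 to 857 TPM) and adipocyte genes in 4 of 6 (Lep at log2 -3.98, Plin1 at -1.77; summed 420 to 674 and 303 to 704 TPM). Of the vessel lists, 1 of 8 endothelial genes was lower (Tek at log2 -0.40, with Tie1 at -0.29 not passing; summed 180 to 270 and 190 to 279 TPM), and 3 of 9 pericyte and smooth muscle genes were lower and 1 higher (Cnn1 at log2 -1.36, Tagln at -0.54; summed 384 to 697 and 436 to 505 TPM). Of 8 Schwann cell genes 1 was lower, S100b at log2 -1.07 (summed 89.8 to 364 and 104 to 291 TPM), of 4 satellite cell genes Vcam1 was higher at log2 0.64 and Chodl lower at -0.67 (with Pax7 at -0.67 not passing; summed 10.8 to 15.3 and 9.94 to 15.3 TPM), none of 7 slow fibre genes passed (Myh7 at log2 1.25, edgeR FDR 0.0174, and Tnni1 at 0.71; summed 402 to 2015 and 783 to 3138 TPM), and of 6 fibre genes Myh1 was higher at log2 0.67, with Myh4 at 0.28 not passing. No gene of these lists was at 0 in all mice, and the part of these cells and of denervation in the channel gene differences was not tested.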

How the data were processed

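RNA was measured in the gastrocnemius of 50 mice. Per the study's methods, the authors trimmed reads with Cutadapt 1.9.1, mapped them with kallisto 0.43.1 in strand-specific mode to Ensembl protein-coding transcripts on GRCm38, and shared a read fitting n transcripts equally among them, so genes that share sequence also share reads. They deposited a whole-number count per gene and mouse, and a TPM per gene and mouse. Both deposited tables were used as given.

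From the counts, the 12586 genes at 1 CPM or more in 8 mice or more were tested with edgeR 4.0.16 (TMM factors, quasi-likelihood, 1 fit over 6 ages without a block) at an FDR below 0.01. Alternatives were RLE and upper-quartile factors, no filter, the replicate number as a block, DESeq2 1.42.0, limma 3.58.1 on log2(TPM + 1) and log2(TPM + 0.1), only the 2 ages compared, and each of the 50 mice left out. The rule applied without the mice of 28 months was added after the data were seen. The scripts were tested on simulated data. Libraries held 13607229 to 21267375 counts, which limits genes with few counts. Mice are taken as separate animals from the labels.

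Genes named are those called between 8 and 28 months, the 6 highest, the highest of each class, and those whose call an alternative changed. From each other list, the 2 largest changes and the called partners are named where reported. Kcna1, Kcna2, Kcna10, Kcnc1, Kcne3, Kcnj3, Kcnj8, Kcnk1, Kcnk2, Kcnk6, Kcnn1, Kcnn2 and the 3 genes under 1 TPM were added after their values were seen. The members and lists were chosen with earlier results of these data known. Positions are from GENCODE vM21 and promoters from RefSeq. Some genes are not reported here.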

Additional observations from a re-analysis of the deposited data

Results flagged for a closer look

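Over 24 genes and 6 ages, 144 groups of mice were checked for a mouse far from the others of its age, and 13 were found where chance at 1 in 20 gives 7.2. The highest mice were 28 months replicate 2 for Kcnj2 at 72.9 TPM (others 18.0 to 32.8), 18 months replicate 3 for Kcnj2 at 36.0 and for Kcnn3 at 1.02, 24 months replicate 2 for Kcnj2 at 32.9, 24 months replicate 1 for Kcnk5 at 2.87, 24 months replicate 5 for Kcnq1 at 1.47, 26 months replicate 1 for Kcnq1 at 1.65 and 22 months replicate 2 for Kcnj11 at 240.1 TPM. The mouse 8 months replicate 8 was highest of its age for 3 genes, Kcnn3 at 0.871, Kcnq1 at 1.36 and Kcna1 at 2.37 TPM. The lowest mice were 8 months replicate 3 for Kcnj11 at 125 TPM (others 175 to 209) and 24 months replicate 8 for Kcne4 at 1.26 TPM.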

How the results depend on the processing

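The calls of Kcnc4, Kcng4, Kcnk5, Kcnn3 and Kcnma1 between 8 and 28 months were kept in all 9 alternatives and all 50 leave-outs, with log2 values of Kcnk5 down to 0.72 and of Kcnn3 down to 0.54 with limma on log2(TPM + 1). Of 33 tested genes, 12 were called at 28 against 8 months, 7 with only the 2 ages in the fit and 7 with limma and a replicate block (an alternative chosen after seeing the data). At 26 against 8 months 4 were called, 7 with no filter and 2 with limma at either pseudocount. At 24 against 8 months 1 was called, 2 with DESeq2 and 3 with only the 2 ages. At 28 against 22 months 5 were called, 8 with DESeq2 and 3 with only the 2 ages. For any age 10 were called, 6 of them among the 24 genes that limma tested. Of these 24, limma called 4 at either pseudocount or with the block. The number of genes reaching the rule was 24, 39 at 0.5 TPM and 15 in all 50 mice. The number of genes tested at 28 against 8 months also differed. It was 12586 in the edgeR test above, 22116 with no filter, 12075 with only the 2 ages and 12452 with limma. Kcnq3, Kcnd3 and Kcnh2 were outside the limma test and could not be called there. What else moved the calls was not tested. Leaving out 1 mouse gave 8 to 13 calls at 28 against 8 months (8 without 28 months replicate 2), 2 to 6 at 26, 0 to 1 at 24, 0 at 22 and 18 months, 4 to 8 at 28 against 22 months, 0 at 26 against 24 months and 8 to 12 at any age, and a ratio of summed TPM of 28 to 8 months of 1.01 to 1.07. The log2 fold change of Kcnj11 turned from -0.017 to 0.041 with limma at either pseudocount and to 0.031 with the block, and it ran from -0.068 to 0.015 over the leave-outs. Kcna7 passed in 8 of 9 alternatives and missed with limma and the block (FDR 0.0102).

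The replicate block in edgeR gave 11 calls at 28 against 8 months. Replicate numbers were not taken to pair the mice. Of 121 same-number pairs of ages, 47 had a correlation over 0.1. The median was 0.05, and it was -0.006 for pairs with different numbers. The labels do not say what a replicate number stands for, and whether it marks a shared batch was not tested. Calls over all genes were 52.9% higher with TMM, 44.9% with upper-quartile factors and 61.3% with limma. All 24 potassium channel genes at 1 TPM in 8 or more mice also passed the CPM filter, so the alternatives planned for those that miss it were not run.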
